A study of Mus musculus with 4 samples.

Results

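The immunoproteasome and peptide transporter genes were compared between whole hearts of heterozygous and wild-type mice on 1-colour oligonucleotide arrays. The 6 genes were Psmb8, Psmb9, Psmb10, Tap1, Tap2 and Tapbp, and their probe sets were every one that the array's annotation assigns to a single 1 of these symbols. They came to 9 probe sets of 12422 that are not controls, and to 6 of 8251 named genes. Each genotype was represented by 2 pools, numbered 1 and 2, and each pool was total RNA from 5 hearts of adult males, 8 to 16 weeks of age, on a 129/Black Swiss background. Wild-type and heterozygous mice shared that sex, age range and background. The labels do not say whether the pools of a genotype came from separate animals, so a p-value covers the spread of these 4 samples and no more. Pooling also hides how single animals vary. In RNA from a whole organ, fewer cells of a type and less RNA per cell cannot be told apart.

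The proteasome is a barrel-shaped protease that degrades proteins marked with ubiquitin. In lymphocytes, in antigen-presenting cells and in most cells exposed to interferon gamma, newly built proteasomes take up Psmb8, Psmb9 and Psmb10 in place of the standard catalytic subunits Psmb5, Psmb6 and Psmb7, and this form is called the immunoproteasome. Its peptides are carried into the endoplasmic reticulum by the transporter of Tap1 and Tap2, and tapasin, the product of Tapbp, holds empty MHC class I molecules at the transporter until they bind a peptide. Class I molecules then present these peptides to CD8 T cells. Cardiomyocytes express little of this machinery at rest.

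Tap1 and Psmb9 lie head to head on chromosome 17 and Psmb8 lies beside them, so their start regions are shown first. The windows run from 250 bases before to 50 bases after the annotated start, 5′ to 3′ on the gene's own strand, from RefSeq on GRCm38.p6. Windows were found for 5 of the 6 genes, all but Tap2, and for 2 of the 3 standard subunits, all but Psmb7. The Tap1 window is chr17:34187306-34187605 on the plus strand, and the Psmb9 window, chr17:34187281-34187580 on the minus strand, shares 275 bases with it, so only Tap1's is printed. The start sites of the pair are 225 bases apart. The Psmb8 window is chr17:34197945-34198244 on the plus strand, and that of the standard subunit it replaces, Psmb5, is chr14:54617946-54618245 on the minus strand. Capitals mark the motif matches described after the sequences.
Tap1: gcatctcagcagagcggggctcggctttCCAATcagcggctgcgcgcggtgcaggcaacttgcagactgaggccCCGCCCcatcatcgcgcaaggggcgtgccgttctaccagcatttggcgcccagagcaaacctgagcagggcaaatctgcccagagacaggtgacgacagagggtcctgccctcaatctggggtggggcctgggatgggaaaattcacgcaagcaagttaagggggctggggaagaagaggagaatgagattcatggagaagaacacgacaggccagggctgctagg
Psmb8: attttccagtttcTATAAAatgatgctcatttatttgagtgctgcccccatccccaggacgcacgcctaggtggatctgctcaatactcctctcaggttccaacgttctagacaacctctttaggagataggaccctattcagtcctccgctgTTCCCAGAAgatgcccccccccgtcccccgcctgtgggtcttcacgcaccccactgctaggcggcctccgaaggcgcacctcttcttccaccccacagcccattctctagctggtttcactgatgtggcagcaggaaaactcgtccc
Psmb5: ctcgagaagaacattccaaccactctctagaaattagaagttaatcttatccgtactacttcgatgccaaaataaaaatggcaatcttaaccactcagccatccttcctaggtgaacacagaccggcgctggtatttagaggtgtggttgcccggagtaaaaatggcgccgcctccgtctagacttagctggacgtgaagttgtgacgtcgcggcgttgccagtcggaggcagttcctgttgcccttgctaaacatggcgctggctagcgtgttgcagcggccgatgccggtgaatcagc

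Each window was searched on both strands for 6 motifs. They were the gamma-activated site TTCNNNGAA, to which STAT factors bind, the interferon-stimulated response element core (GAAA, 2 bases of any kind, GAAA), the NF-kappaB consensus, the GC box GGGCGG, the CCAAT box and the TATA box TATAAA. The Psmb8 window held 1 gamma-activated site, TTCCCAGAA, at -97 to -89 relative to the start, and a palindromic pattern of this kind matches on both strands at the same bases. A gamma-activated site was present in 8.30% of all 32851 windows of this length. It also held TATAAA, found in 13.6% of all windows, but at -237 to -232. In Tap1, CCAAT lay at -222 to -218 and a GC box, on the opposite strand, at -176 to -171 relative to the start, and both are the same bases that match in the Psmb9 window. The Tapbp window held a GC box and 2 copies of CCAAT on the opposite strand. GC boxes were present in 35.7% and CCAAT in 37.4% of all windows. The Psmb10 and Psmb5 windows held no match, and no window of the 7 held the response element core or the NF-kappaB consensus, which were present in 3.44% and 4.51% of all windows. A missing match says only that these letters are not in this window. No 2 of the matches in the printed windows overlapped.

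The inducible catalytic subunits Psmb8 and Psmb9 and both chains of the transporter, Tap1 and Tap2, fell by 2.67-fold to 4.82-fold in the heterozygous pools. Psmb10, the remaining inducible subunit, fell 1.68-fold, and Tapbp fell 1.39-fold on its brightest probe set. The standard subunits Psmb5, Psmb6 and Psmb7 did not pass the test. Of the 9 probe sets of the 6 genes, 8 were bright enough to be tested, and 6 of the 8 fell at an adjusted p under 0.05, against 20.4% of all 7453 tested probe sets that fell and 17.9% that rose (limma with a mean-variance trend, Benjamini-Hochberg adjustment over all tested probe sets). In 7 of the 8, both heterozygous pools lay below both wild-type pools, as in 35.5% of all tested probe sets. By the brightest probe set of every gene, all 6 genes fell, against 19.5% of 5692 tested genes that fell and 19.5% that rose. Their median log2 change was -1.63, and that of all tested genes was 0.02. With all probe sets of a gene averaged, dim ones included, the median of the 6 was -1.30.

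**Figure D1:**
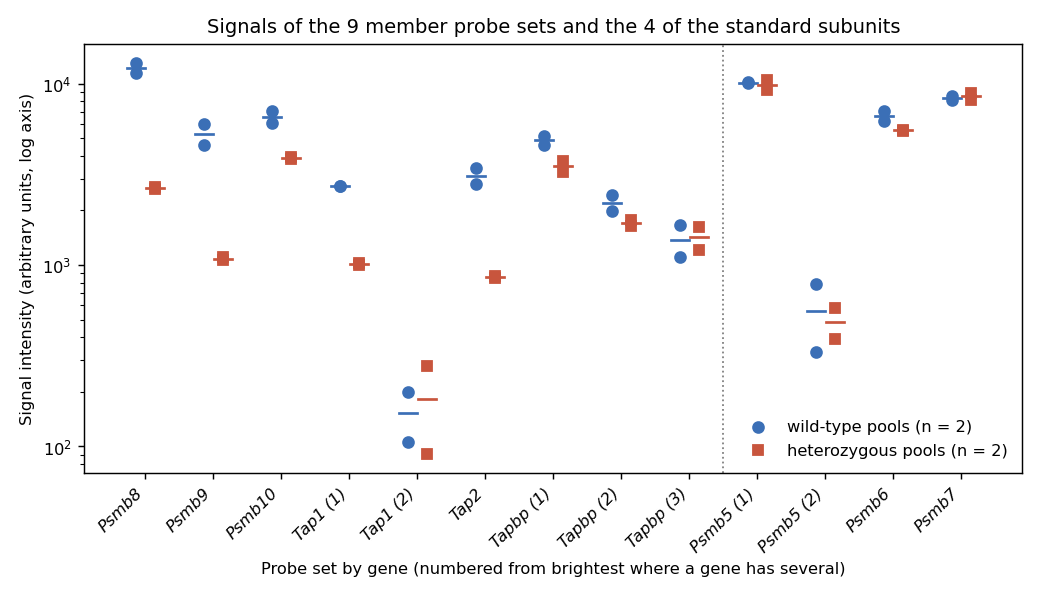
Deposited signal of each pool on a log axis for the 9 probe sets of the 6 genes and the 4 probe sets of the standard subunits, with circles for wild-type pools, squares for heterozygous pools and a line at each mean of 2 pools. Psmb8, Psmb9, Tap1 and Tap2 show a wide gap between genotypes on their brightest probe sets, while Psmb5 and Psmb7 overlap.

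Psmb8 encodes the inducible subunit with chymotrypsin-like activity, and its maturation also helps immunoproteasomes to assemble. On probe set 102791_at, wild-type pools 1 and 2 read 12915.6 and 11407.3, and the heterozygous pools read 2617.6 and 2697.5. Both wild-type pools were high and the genotypes did not overlap. The fall was 4.57-fold (log2 change -2.19, SE 0.14, adjusted p = 1.68e-05), and 3.01% of tested probe sets fell further.

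Psmb9 encodes the subunit that replaces Psmb6 and favours peptides that fit class I grooves. Signals on probe set 93085_at were 5989.9 and 4582 in wild-type hearts against 1109 and 1064.1 in heterozygous hearts. The wild-type pools stood apart from each other by more than the heterozygous pools did, and the genotypes did not overlap. At 4.82-fold, Psmb9 fell more than any other of the 6 genes (log2 change -2.27, SE 0.18, adjusted p = 4.28e-05).

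Psmb10 encodes the subunit that replaces Psmb7 and lies on chromosome 8, away from the other members. Probe set 101486_at read 7091.1 and 6038.4 in wild-type hearts and 3960.7 and 3841.7 in heterozygous hearts. The genotypes did not overlap, but the gap was narrower than for Psmb8 and Psmb9. Psmb10 fell 1.68-fold (log2 change -0.75, SE 0.15, adjusted p = 0.00489). This call was lost without the filter on dim probe sets (adjusted p = 0.0514) and without heterozygous pool 2 (adjusted p = 0.0554). Within pools, log2 Psmb8 minus log2 Psmb10 differed by -1.45 between heterozygous and wild-type pools, a 2.72-fold steeper fall of Psmb8, with no overlap between genotypes. The exact two-sided permutation p was 0.33, the smallest that 2 pools against 2 can give.

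Tap1 and Tap2 encode the 2 chains of the peptide transporter, which is unstable when either is missing. On probe set 103035_at, Tap1 read 2714.7 and 2717.3 in wild-type hearts, and 1031.7 and 1003 in heterozygous hearts. The pools of each genotype lay close together and the genotypes did not overlap. Tap1 fell 2.67-fold (log2 change -1.42, SE 0.17, adjusted p = 3.11e-04). Its second probe set, 162278_r_at, was among the dim ones left untested, at 199.4 and 106.3 in wild-type against 91.3 and 276.3 in heterozygous hearts. It did not separate the genotypes.

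Tap2, on probe set 102873_at, read 3419.1 and 2790 in wild-type hearts against 844.6 and 865.4 in heterozygous hearts. Both heterozygous pools were low, without overlap. The fall was 3.61-fold (log2 change -1.85, SE 0.18, adjusted p = 1.24e-04). Within pools, log2 Tap2 minus log2 Tap1 was 0.33 and 0.04 in wild-type hearts and -0.29 and -0.21 in heterozygous hearts, a difference of -0.44 (exact permutation p = 0.33, two-sided). Psmb8, Psmb9, Tap1 and Tap2 fell in the 14 other ways of analysis, with adjusted p-values up to 0.0267.

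Tapbp encodes tapasin and was represented by 3 probe sets, which disagreed. The brightest, 100154_at, read 5171.9 and 4566 in wild-type hearts against 3745.2 and 3276 in heterozygous hearts. Both heterozygous pools were below both wild-type pools, and the fall was 1.39-fold (log2 change -0.47, SE 0.16, adjusted p = 0.0412). Probe set 102689_at read 2421.8 and 1977.4 against 1762.7 and 1636.6, also without overlap, and did not pass (log2 change -0.37, adjusted p = 0.135). The third, 162104_f_at, read 1109.2 and 1654.4 against 1217.4 and 1622.2, which overlap (log2 change 0.05, adjusted p = 0.885). The call on the brightest probe set was lost in 6 of the 14 other ways. These included scaling to a common median (log2 change -0.29, adjusted p = 0.219), the fits without wild-type pool 1 (-0.38, adjusted p = 0.173), without heterozygous pool 1 (-0.57, adjusted p = 0.0913) and without heterozygous pool 2 (-0.38, adjusted p = 0.219), no filter (adjusted p = 0.110) and no trend (adjusted p = 0.0914).

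The standard subunits are built into proteasomes of nearly all cells. Psmb5, the standard chymotrypsin-like subunit, read 10169.7 and 10062.4 in wild-type hearts against 10493.6 and 9214.9 in heterozygous hearts. The ranges overlapped (log2 change -0.04, SE 0.14, adjusted p = 0.844), and its sign turned with scaling to a common median (0.14). A dim second probe set of Psmb5 ran from 331.1 to 788.4 over the 4 pools, with overlap (adjusted p = 0.875). Psmb7, the standard trypsin-like subunit, had signals of 8549.5 and 8093 against 8870 and 8171.5, which overlapped (log2 change 0.03, SE 0.14, adjusted p = 0.872), and its sign turned with quantile normalization (-0.07) and cyclic loess (-0.13). Psmb6, the standard caspase-like subunit, read 6247.2 and 7037.1 against 5482.3 and 5553.9. Both heterozygous pools were below both wild-type pools, but the difference did not pass (log2 change -0.26, SE 0.14, adjusted p = 0.176).

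Each inducible subunit was set beside the standard subunit whose place it takes, as a difference of log2 signals within a pool, a quantity that a common scaling of an array does not move. Psmb8 minus Psmb5 was 0.34 and 0.18 in wild-type hearts against -2.003 and -1.77 in heterozygous hearts. Psmb9 minus Psmb6 was -0.06 and -0.62 against -2.31 and -2.38. Psmb10 minus Psmb7 was -0.27 and -0.42 against -1.16 and -1.09. The genotypes did not overlap in any of the 3 pairs, and each inducible subunit fell relative to its standard partner, by 4.44-fold, 4.01-fold and 1.72-fold in that order. The exact two-sided permutation p was 0.33 for each pair, which is the smallest this design allows, and 0.33 after adjustment over the 3 pairs. Levels of different probe sets are not comparable, so only the changes of these differences were read.

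**Figure D2:**
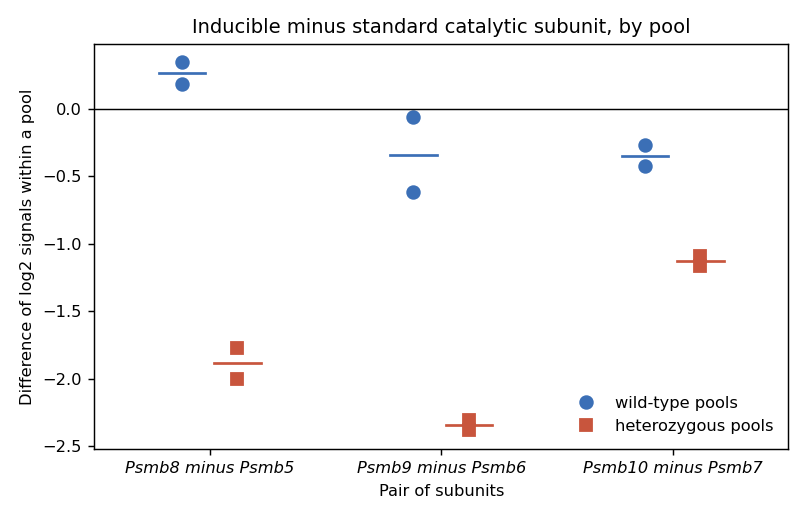
Difference of log2 signals, inducible minus standard catalytic subunit, in each pool, with circles for wild-type pools, squares for heterozygous pools and a line at each mean of 2 pools. All heterozygous pools lie below all wild-type pools in the 3 pairs, and the gap is smallest for Psmb10 minus Psmb7.

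Tap1 and Psmb9, whose start windows overlap, did not fall by the same amount on the probe sets compared. Log2 Psmb9 minus log2 Tap1 was 1.14 and 0.75 in wild-type hearts against 0.10 and 0.09 in heterozygous hearts. The probe set of Psmb9 thus fell 1.81-fold further than that of Tap1, without overlap between genotypes (exact two-sided permutation p = 0.33). Psmb9 minus Psmb8 overlapped between genotypes and differed by -0.08 (exact permutation p = 0.67, two-sided). Psmb8 fell 3.29-fold further than Tapbp and 1.26-fold further than Tap2, again with exact permutation p-values of 0.33. Each difference between members compares 1 probe set with another. Probe sets of a single gene also changed by unlike amounts, as for Tapbp and for H2-K1 (falls of 1.60-fold to 3.01-fold). Whether the genes themselves fell unequally was not tested.

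The other subunits of the core particle form its outer rings and the non-catalytic part of its inner rings. All 11 on the array were tested. Of these, 4 fell, against 19.5% of all tested genes, 0 rose and 7 did not pass. The median log2 change was -0.38. Psma5 fell 1.65-fold (log2 change -0.72, adjusted p = 0.00760; lost without heterozygous pool 2), from 4713.3 and 4352 to 2989.1 and 2527.5. Psmb4, Psma2 and Psma6 fell by 1.30-fold to 1.37-fold, with adjusted p-values from 0.0233 to 0.0480. With scaling to a common median 1 of the 11 fell, beside 15.7% of all tested probe sets. Cyclic loess gave 8 (20.3% of all), no filter 2 (5.83%) and no trend 1 (18.9%). With arrays centred on cardiomyocyte markers 11 fell, where 48.2% of all tested probe sets did. Without wild-type pool 1 or 2 the count was 2 or 3, and without heterozygous pool 1 or 2 it was 1 or 0.

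Of the regulatory particle, which unfolds substrates and feeds them into the core, 18 of 20 subunits on the array were tested. Psmd13 (log2 change -0.65, adjusted p = 0.0123) and Psmd8 (-0.63, adjusted p = 0.0217) fell, 0 rose and 16 did not pass, against 19.5% of all tested genes that fell, and the median was -0.07. With scaling to a common median 0 of the 18 fell, beside 15.7% of all tested probe sets. Without the filter 0 of 20 fell, beside 5.83% of all probe sets. Leaving out wild-type pool 1 or either heterozygous pool also gave fewer falls. Centring on cardiomyocyte markers gave 15, on a scale where 48.2% of all tested probe sets fell.

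Among 8 tested activators and assembly factors of the proteasome, 2 rose, 1 fell and 5 did not pass. Of all tested genes, 19.5% rose and 19.5% fell. Psme3, the nuclear activator subunit, rose 2.77-fold. It read 1210.5 and 1234.4 in wild-type hearts against 3464.9 and 3315.8 in heterozygous hearts, without overlap (log2 change 1.47, SE 0.16, adjusted p = 2.18e-04). Psme4, another activator, rose 1.53-fold (log2 change 0.62, adjusted p = 0.0262), a call lost in 6 of the other ways, among them cyclic loess and the fits without wild-type pool 1 or heterozygous pool 1. Psme1, a subunit of the activator that interferon gamma induces, read 9673.7 and 8416.5 against 7649.3 and 7721.6 and did not pass (log2 change -0.23, adjusted p = 0.228). Pomp, the chaperone of core assembly, fell 1.32-fold (log2 change -0.40, adjusted p = 0.0401), a call that was lost with scaling to a common median and without any 1 of the 4 pools. The other 4 did not pass.

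**Figure D3:**
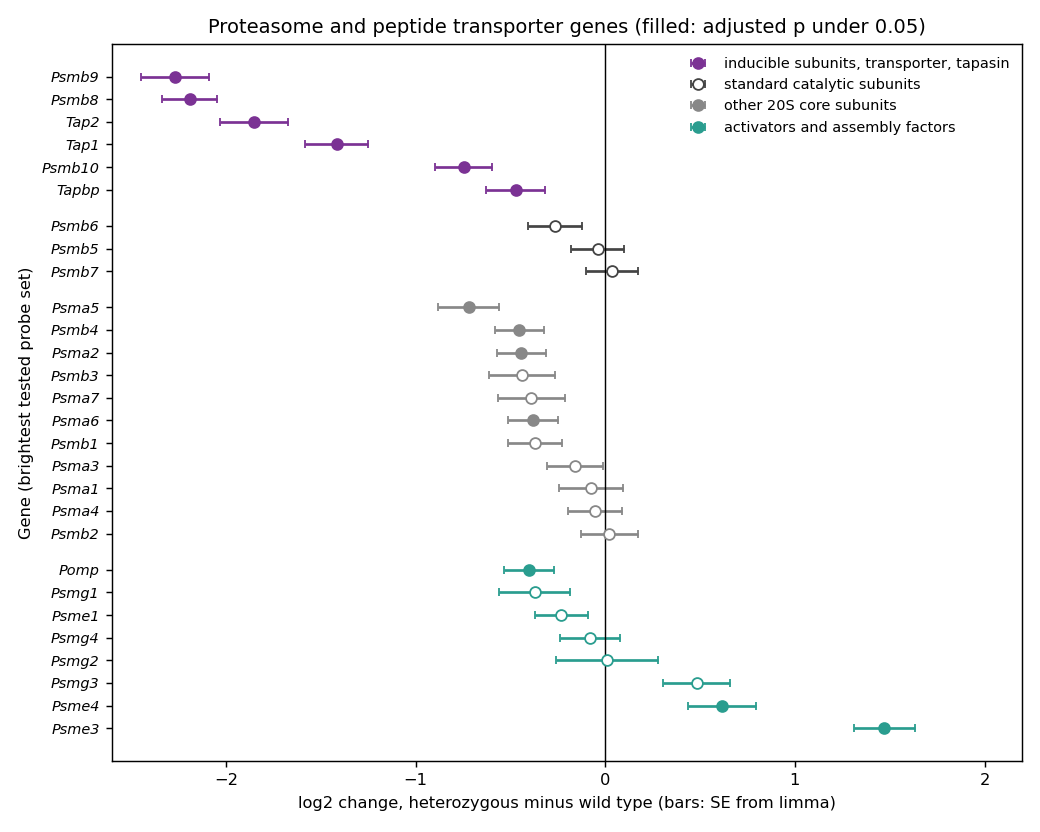
Log2 change, heterozygous minus wild type, on the brightest tested probe set of each gene, with bars for limma's SE and filled points for an adjusted p under 0.05. The 6 immunoproteasome and transporter genes lie between -2.27 and -0.47, the standard catalytic subunits between -0.26 and 0.03, and Psme3 at 1.47.

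MHC class I heavy chains and their light chain, beta-2 microglobulin, receive the transported peptides. The list of these genes also holds the related Mr1 and Cd1d1, whose ligands are not such peptides. All 12 genes of the list on the array were tested. In the heterozygous pools 8 fell, against 19.5% of all tested genes, 0 rose and 4 did not pass. Both heterozygous pools were below both wild-type pools for all 12, as in 35.5% of all tested probe sets. The median log2 change was -0.92. B2m, the light chain, fell 1.82-fold, from 41858.3 and 41509.3 to 25375.2 and 20572.9 (log2 change -0.87, SE 0.14, adjusted p = 0.00171), a call lost without the filter on dim probe sets. H2-K1, a classical heavy chain, fell 1.60-fold on its brightest probe set (log2 change -0.68, adjusted p = 0.00313), a call lost without heterozygous pool 1. On its other 2 probe sets it fell 1.98-fold and 3.01-fold (log2 changes -0.98 and -1.59, adjusted p = 0.00245 and 0.00142). The other classical heavy chain here, H2-D1, fell 2.33-fold on its brightest probe set (log2 change -1.22, adjusted p = 2.66e-04). Its other 2 probe sets fell 1.93-fold and 1.90-fold (log2 changes -0.95 and -0.93, adjusted p = 7.44e-04 and 0.00197). Heavy chain genes are near-identical in stretches, so their probe sets can detect several members and these values are uncertain gene by gene.

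H2-Q1, a non-classical heavy chain, fell 8.51-fold (log2 change -3.09, SE 0.16, adjusted p = 8.57e-06). Mr1, which presents vitamin metabolites, fell 3.70-fold (log2 change -1.89), and Cd1d1, which presents lipids, fell 2.13-fold (log2 change -1.09). H2-M2 and H2-Q4 fell by 1.36 and 0.98 on the log2 scale. H2-M3 (-0.58), H2-T24 (-0.58), H2-Bl (-0.37) and H2-Q10 (-0.30) did not pass.

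Of 7 tested genes that trim peptides or help load class I molecules, 1 fell, 1 rose and 5 did not pass. The median log2 change was 0.23. Of all tested genes, 19.5% fell and 19.5% rose. Pdia3, the disulfide isomerase of the loading complex in which tapasin sits, fell 1.48-fold (log2 change -0.56, adjusted p = 0.0243). Npepps, a cytosolic aminopeptidase, rose 1.57-fold (log2 change 0.65, adjusted p = 0.0156). Neither call held in all other ways: that on Pdia3 was lost with scaling to a common median and without wild-type pool 2 or either heterozygous pool, and that on Npepps without wild-type pool 1 or heterozygous pool 1. The chaperone Canx read 886.4 and 1306.4 against 1314.9 and 1464.3 and did not pass (adjusted p = 0.231).

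Psmb9, Tap1, Psmb8 and Tap2 stand side by side within the MHC class II region. The 5 nearest named genes of the array on each side of this cluster were H2-Oa, Brd2, H2-DMa, H2-DMb2 and H2-DMb1 on one side and H2-Ob, H2-Ab1, H2-Aa, H2-Eb1 and H2-Eb2 on the other. Of the 9 tested, 8 fell, against 19.5% of all tested genes, and the median log2 change of the 9 was -1.61. All 8 are class II presentation genes, and Brd2 was the only other neighbour tested. The class II chains H2-Aa and H2-Eb1 fell 3.45-fold and 3.28-fold (adjusted p = 4.86e-05 and 1.14e-04), and H2-Oa, a modulator of class II loading, fell 4.82-fold (adjusted p = 6.28e-04). Brd2, a reader of acetylated chromatin, did not pass (log2 change 0.17). Around Tapbp, in the same chromosome's MHC region, 8 of 10 neighbours were tested, Kifc1 fell (-2.51), Ndufa7 rose (0.96), and the median was 0.18. Around Psmb10, 6 of 10 were tested, Ctcf (-1.14) and Nfatc3 (-1.53) fell, and the median was -0.15.

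**Figure D4:**
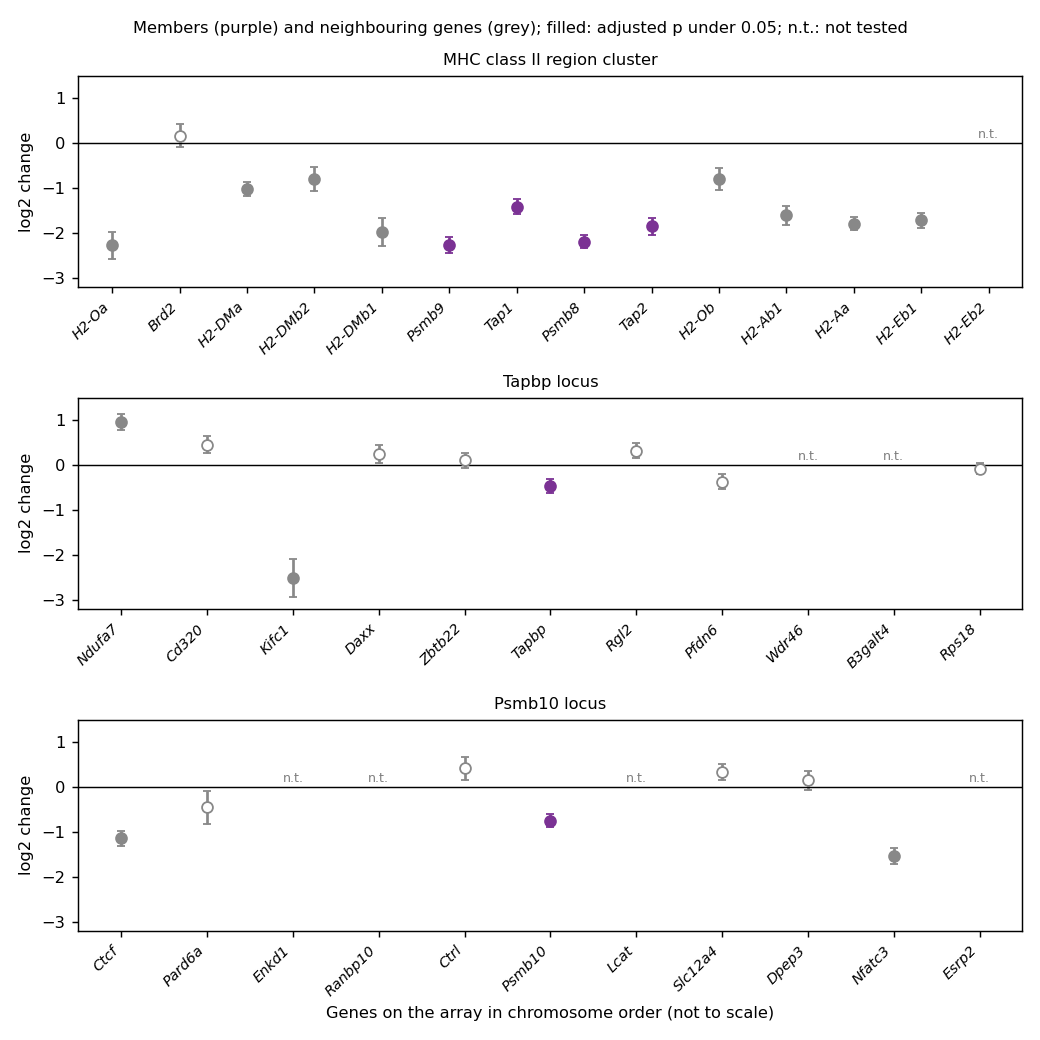
Log2 change, heterozygous minus wild type, of the members (purple) and of the nearest named genes on the array in chromosome order, with bars for limma's SE, filled points for an adjusted p under 0.05 and n.t. for genes not tested. Around the cluster of 4 members 8 of 9 tested neighbours fell, all 8 of them class II presentation genes. Around Tapbp 1 of 8 fell and around Psmb10 2 of 6, against 19.5% of all tested genes.

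Class II presentation genes as a list had 10 tested members, of which 9 fell. Of all tested genes 19.5% fell. Once dim probe sets were let in, 5 of the 12 listed genes on the array fell, beside 5.83% of all probe sets. The list includes the 8 neighbours of the cluster that fell, so of the 10 only Ciita and Cd74 were tested in it alone. Ciita, the activator of class II transcription, did not pass (log2 change -0.57, adjusted p = 0.150). Cd74, the invariant chain, fell 1.98-fold (log2 change -0.98, adjusted p = 7.79e-04).

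Interferon gamma acts through Ifngr1 and Ifngr2, the kinases Jak1 and Jak2 and STAT factors, and Irf1 then drives Tap1, Psmb9 and other presentation genes. Of 19 tested genes for interferon receptors, kinases and transcription factors, 7 fell, 1 rose and 11 did not pass. The median log2 change was -0.40. Of all tested genes, 19.5% fell and 19.5% rose. Irf1 fell 2.21-fold, from 2128.3 and 2087.5 to 1100.9 and 828.3 (log2 change -1.14, SE 0.20, adjusted p = 0.00228), a call lost without the filter on dim probe sets. Irf8, a factor of myeloid and B cells, fell 3.45-fold (log2 change -1.79, adjusted p = 1.12e-04), and Socs1, an inhibitor of the pathway, fell 3.88-fold (log2 change -1.96, adjusted p = 2.63e-04). Jak1 fell 1.58-fold (log2 change -0.66, adjusted p = 0.0126), a call lost without the filter and on leaving out either heterozygous pool or wild-type pool 2. Ifngr1, the ligand-binding chain of the receptor, fell 1.53-fold, with an adjusted p just under the threshold (log2 change -0.61, adjusted p = 0.04999). The other chain, Ifngr2, rose 1.48-fold (log2 change 0.56, adjusted p = 0.0288), but its sign turned when arrays were centred on cardiomyocyte markers (-0.04).

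Of 21 tested interferon-induced genes, 9 fell, against 19.5% of all tested genes, 0 rose and 12 did not pass. The median log2 change was -0.54. The GTPase Ifi47 fell 7.36-fold (log2 change -2.88, adjusted p = 2.98e-05), and the related Igtp and Irgm2 fell 2.60-fold and 2.24-fold. Ifi27 fell 1.79-fold, a call lost without heterozygous pool 2. Iigp1, another GTPase of this family, read 4028.8 and 3866.3 against 6130.3 and 4787 and did not pass (log2 change 0.46, adjusted p = 0.0564). Ifitm3 overlapped between genotypes (log2 change 0.05). Without the filter, 2 of 21 signalling genes and 3 of 30 interferon-induced genes fell, beside 5.83% of all probe sets. Leaving out any 1 pool gave fewer falls in both lists, as it did over all tested probe sets.

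Markers of lymphocytes and thymocytes fell with the members. Of 25 tested, 24 fell, against 19.5% of all tested genes, and Lat did not pass (log2 change -0.02). The median log2 change was -2.55. Cd1d1, already counted with the class I genes, is among the 24. The summed signal of the list was 183930 and 181691 in wild-type hearts against 26933 and 26433 in heterozygous hearts, 6.85-fold lower. Bright probe sets weigh most in such a sum, and the median change of the list was 5.88-fold. No marker read 0 in any pool, but neither did dim untested probe sets such as that of Foxn1. Cd8b1, a chain of the CD8 co-receptor, read 27217.4 and 21097.4 against 770.2 and 581.5. Of 6 tested thymic epithelial markers 3 fell, among them the thymic chemokine Ccl25 (log2 change -3.33), and the list's summed signal was 15680 and 13592 against 3205 and 3389. Foxn1, the defining transcription factor of that epithelium, was not tested and read 36.2 to 114.3. Of 12 tested macrophage and dendritic cell markers 3 fell and 1 rose, against 19.5% of all tested genes in each direction. The summed signals of all 17 such markers on the array, untested ones included, were 35648 and 33407 against 30006 and 30260. The part of these cell types in the fall of the 6 genes was not tested.

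Most markers of cardiomyocytes, endothelial cells, fibroblasts and erythroid cells moved the other way on the deposited scale. Of 11 tested cardiomyocyte markers 9 rose, against 19.5% of all tested genes, and 2 did not pass. The median log2 change of the 11 was 0.61, with summed signals of 643117 and 582580 against 898968 and 923239. Of 12 endothelial markers 9 rose, and of 10 fibroblast markers 8 rose, with median log2 changes of 0.88 and 0.76. Of 3 erythroid markers 2 rose. Arrays centred on the cardiomyocyte markers moved the median of all tested probe sets to -0.60. On that scale the log2 changes of Psmb8 and Psmb9 were -2.79 and -2.87, those of Tap1 and Tap2 were -2.02 and -2.46, and Psmb5, Psmb6 and Psmb7 fell as well (-0.64, -0.87 and -0.57). The share of cardiomyocyte, endothelial and fibroblast RNA in these results was not tested either.

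**Figure D5:**
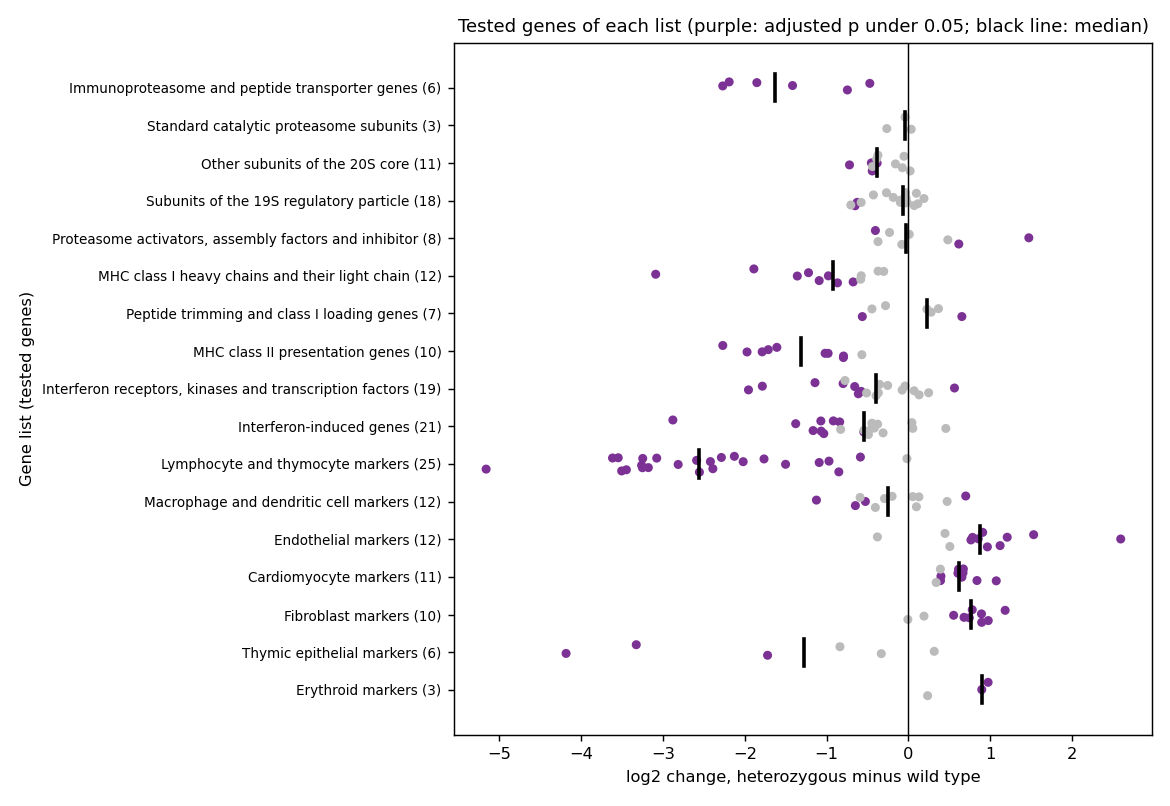
Log2 changes of the tested genes of each list on their brightest probe sets, 1 point a gene (purple for an adjusted p under 0.05), with a line at the median of the list and the number of tested genes in brackets. The median is -1.63 for the 6 immunoproteasome and transporter genes, -0.04 for the standard catalytic subunits, -2.55 for the lymphocyte and thymocyte markers and 0.61 for the cardiomyocyte markers.

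The 6 genes did not share a single profile. After centring each gene on its mean over the 4 pools, the mean profile of the 6 stood at 0.85 and 0.64 for wild-type and at -0.72 and -0.77 for heterozygous hearts. Tap1 lay nearest to it, at a root mean square difference of 0.08 (log2 scale), followed by Tap2 at 0.19, Psmb8 at 0.35, Psmb10 at 0.37, Psmb9 at 0.39 and Tapbp at 0.51. The standard subunits lay at 0.63 (Psmb6), 0.73 (Psmb5) and 0.76 (Psmb7). Among 5686 other tested genes, those nearest to the mean profile over the 4 pools were Nup107 at 0.025 and 1700017B05Rik at 0.033, then Rassf2, Snrnp40, Gpsm3, Idi1, Anp32b, Snrpg, Itgb7 and Mcm4, up to 0.070. These 10 genes fell by 1.40 to 1.52 on the log2 scale. With 4 pools in 2 genotypes, nearness mostly reads the size of the genotype difference.

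Over the whole array, correlations of log2 signals were 0.971 and 0.970 within the genotypes and 0.845 to 0.856 between them, across probe sets, which are not independent. The median signal was 569.6 and 608.55 for wild-type and 508.85 and 531.15 for heterozygous hearts. Of the 7453 tested probe sets 1519 fell and 1337 rose. Scaling to a common median raised the median log2 change from 0.00 to 0.18. Each probe set's change on the deposited scale shifts by that amount, while differences within a pool do not move.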

How the data were processed

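RNA of 4 pools was measured, 1 array a pool. The authors deposited signal intensities on a linear scale, and trimmed means of the arrays (2% removed at each end) differed by at most 1.01 times, so they were taken as already scaled. How probes were summarised was not given in the sources used here, and heterozygous pool 2 has no value for the 66 controls. The deposited intensities were raised to at least 36.25, the 10th percentile, and turned into log2 values. After removal of controls, the dimmest 40% of 12422 probe sets by mean signal were left out, and 7453 were tested.

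Genotype was the only term of a limma 3.58.1 fit (R 4.3.3; lmFit and eBayes, trend on). Two-sided p-values were adjusted by Benjamini-Hochberg across the tested probe sets and called under 0.05. Changes are heterozygous minus wild type, with limma's SE, and a gene counts by its probe set of highest mean signal. Folds are 2 to the power of the log2 change. Differences within pools were compared by exact permutation. The number of arrays limits the precision.

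Probe sets were named by the platform annotation (10855 with 1 symbol, 396 with several, 1237 with none), and 10839 were found by gene ID in RefSeq's table for GRCm38.p6, which also gave gene order; 0 symbols changed. Promoter windows are RefSeq's for that build, which is not tied to the intensities.

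The members and the gene lists were chosen with earlier results of these data known. Named are all probe sets of the members and the 3 standard subunits, in every list up to 4 called genes a direction with the smallest p, all tested class I genes, certain interferon factors and activators, the 10 nearest profiles and the genomic neighbours. Canx, Cd74, Ciita, Foxn1, Lat, Ifngr1, Iigp1 and Ifitm3 were added after their values were seen. The script was checked on simulated data. Alternatives were other scalings, floors, filters and moderation, a block for the pool number, leaving out each pool, and, for pairs and list medians, averaging a gene's probe sets. Centring on cardiomyocyte markers was added after seeing the data. The mutated gene is not reported here.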

Additional observations from a re-analysis of the deposited data

How the results depend on the processing

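Among 14 other ways of analysis, Psmb8, Psmb9, Tap1 and Tap2 fell in each, with log2 changes from -2.87 to -1.24; Psmb10 failed in 2 and the brightest Tapbp probe set in 6. Of the 8 tested member probe sets, 6 fell, and 4 to 7 did across these ways, beside 5.83% of all probe sets with no filter (4 members) and 48.2% with centring on the cardiomyocyte markers (7 members). Averaging a gene's probe sets, tried for pairs and list medians only, gave -2.12 for Psmb8 minus Psmb5 and left the single-probe-set pairs as they were. The total of 2856 calls became 1206 (724 lower, 482 higher) with no filter on dim probe sets and 1707 to 2289 without 1 pool in turn (630 to 1125 higher), with 1707 and 1708 when heterozygous pool 2 or 1 was left out; fewer samples or more probe sets enter there. Scaling to a common median raised the share of higher calls from 46.8% to 62.5%, and centring on the cardiomyocyte markers gave 3593 lower and 206 higher calls. Some signs turned, and the cause was not tested; apart from Ifngr2 on the deposited scale and Psmb7 with the cardiomyocyte markers, none of these values passed the test. For Psmb5 101558_s_at the change was 0.14 with a common median and -0.13 to 0.053 without 1 pool. For Psmb5 160559_at it was 0.077 with a common median, 0.064 with quantile normalization and -0.73 to 0.52 without 1 pool. For Psmb7 94263_f_at it was -0.074 with quantile normalization, -0.13 with cyclic loess, -0.57 with the cardiomyocyte markers and -0.026 to 0.093 without 1 pool. For Tapbp 162104_f_at it was -0.55 with the cardiomyocyte markers and -0.24 to 0.34 without 1 pool, and for Ifngr2 -0.041 with those markers. Same-numbered pools deviated together at a correlation of only 0.16, over 2 pairs, so the pool number was not taken as a pairing; the fit with the pool number as a block made 3035 calls, 6 of them on the members, and none of the 74 probe sets and genes followed across settings (members, standard subunits and genes named from the lists by rule) changed its call.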
